A study of Homo sapiens with 6 samples.

Results

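Fibronectin, the matrix glycoprotein encoded by FN1, was followed together with its main cell-surface receptors in melanoma xenografts treated with anle138b. The 10 genes were taken by name from a list: FN1, the integrin alpha subunits ITGA3, ITGA4, ITGA5 and ITGAV, the integrin beta subunits ITGB1, ITGB3, ITGB5 and ITGB8, and the co-receptor SDC4. They were 10 of 60617 gene identifiers in the count tables, and all 10 passed the filter on low counts that left 20423 genes for testing. The 6 tumors were xenografts of WM983-B, an established human melanoma line. In 3 of them the host had received anle138b systemically, and the other 3 were untreated. Anle138b is a diphenyl-pyrazole compound that interferes with oligomers of alpha-synuclein, and the dose, the duration and the host strain are not stated in the sources used here. All tumors came from this 1 line. Sample titles followed 2 naming patterns, called here the 4-library set (replicates 1 and 2 of each group) and the 2-library set (replicate 3 of each group), and what the patterns stand for was not given.

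Fibronectin is secreted as a dimer and assembled by cells into fibrils. Integrins, each made of an alpha and a beta chain, bind its Arg-Gly-Asp motif from the cell surface and couple the matrix to actin through talin, kindlin and other adaptors. The receptor formed by ITGA5 and ITGB1 is the classical fibronectin receptor, ITGAV pairs with ITGB3, ITGB5 or ITGB8 as well as with ITGB1, and ITGA4 with ITGB1 binds an alternatively spliced segment of fibronectin. In melanoma, the pairing of ITGAV with ITGB3 is known as a marker of the invasive growth phase.

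FN1 lies on the minus strand of chromosome 2, from 215360440 to 215436172 (GRCh38, GENCODE release 29). The codons of the Arg-Gly-Asp motif are shown because the integrins with ITGA5 or ITGAV are known to bind it. They lie in exon 30 of 46 of the transcript FN1-203, at chr2:215384063-215384071. The coding strand around them reads as follows, with the 3 codons in capitals.
FN1 Arg-Gly-Asp codons, chr2:215384039-215384095, minus strand: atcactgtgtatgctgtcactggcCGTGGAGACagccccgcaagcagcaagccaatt
The promoter is shown because FN1 was the member that rose most. The 250 bases before its RefSeq start site (GRCh38.p14) are given, with a cAMP response element (TGACGTCA) and a CCAAT box (CCAAT) in capitals. The RefSeq start site lies inside the GENCODE interval given above, so the bases from 215436069 to 215436172 belong to both this window and that interval.
FN1 promoter, chr2:215436069-215436318, minus strand: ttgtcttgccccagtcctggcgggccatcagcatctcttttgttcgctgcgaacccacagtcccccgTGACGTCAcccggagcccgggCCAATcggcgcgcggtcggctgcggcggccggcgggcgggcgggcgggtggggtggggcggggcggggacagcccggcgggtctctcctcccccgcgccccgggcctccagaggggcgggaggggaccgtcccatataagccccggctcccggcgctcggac
On either strand, TGACGTCA was found in 1.85% of 35116 RefSeq promoters of this length (250 bases before to 50 after a start site), and CCAAT in 34.6%. RefSeq promoters were matched for 8 of the 10 members (not for ITGA3 and ITGB3), and of these only that of FN1 held TGACGTCA. A match describes the letters of the window and is not evidence of binding.

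Libraries held 12400782 to 27599159 counts, with the 2-library set the deeper of the sets. Levels are TMM-scaled CPM, that is, counts relative to the scaled library total. Fold changes are log2 values, anle138b over untreated, from edgeR's quasi-likelihood test with a term for the naming set, and a gene is called changed at an adjusted p under 0.05 (Benjamini-Hochberg over all tested genes). Separate animals are not named in the labels, so the spread that a p-value is set against is that of these libraries and may be technical. The melanoma markers PMEL, MLANA and SOX10 were present in every tumor, at 8281 to 13444, 267 to 474 and 428 to 529 CPM. They belong to a list of 9 melanoma identity markers, of which 0 rose and 0 fell. The log2 changes of the 9 ran from -0.46 to 1.42, with an unadjusted p under 0.05 (edgeR) for 3 upward and 1 downward.

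Of the 10 genes, 2 rose and 0 fell, while 1.05% of all tested genes were called, 0.656% raised and 0.397% lowered. FN1 and ITGB3 passed the test. Every treated tumor was above every untreated tumor for 4 members (FN1, ITGA5, ITGB3 and ITGB8), against 8.5% of all tested genes whose groups did not overlap in either direction. The log2 change was above 0 for 9 members, with a median of 0.21 beside -0.01 over all tested genes. The sign for ITGAV depended on the scaling and is among the 9.

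FN1 stood at 10263, 11665 and 7991 CPM in anle138b replicates 1 to 3 and at 3315, 3464 and 2867 CPM in untreated replicates 1 to 3. The lowest treated tumor thus exceeded the highest untreated tumor, and the tumors of the 2-library set were the lowest of both groups. The rise was 1.62 ± 0.15 on the log2 scale (SE, n = 3 per group), or 3.08-fold (95% interval of the log2 change 1.28 to 1.96, adjusted p = 0.001, edgeR). FN1 took 0.297% to 0.343% of all counts in untreated tumors and 0.818% to 1.18% in treated ones. It was rank 7 to 10 by count among all genes in untreated tumors and rank 2 or 3 in treated tumors. Among the 134 raised genes it had the highest average level, and no tested gene gained more CPM. By log2 fold change it was rank 48 of them. In bulk tumors, more cells of a type and more RNA per cell cannot be told apart. Without the term for the naming set the change was 1.63 and the call was lost (adjusted p = 0.0593). With any 1 library left out it stayed between 1.55 and 1.71, called in all 6 fits. The counts are per gene, so they do not separate the spliced forms of fibronectin.

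**Figure D1:**
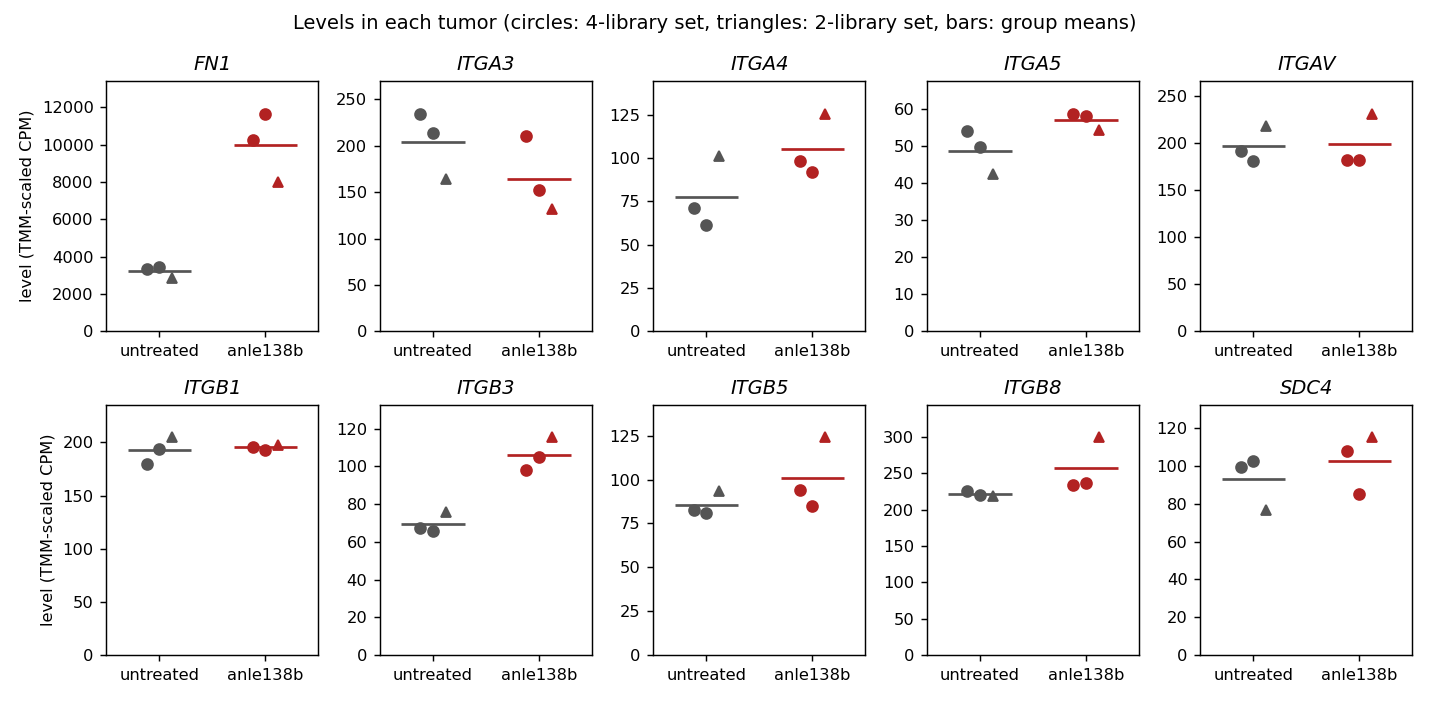
Level of each gene in each tumor in TMM-scaled CPM (vertical axes from 0), untreated in grey and anle138b in red, with circles for the 4-library set, triangles for the 2-library set and bars for group means. The groups are apart for FN1 (2867 to 3464 against 7991 to 11665 CPM) and ITGB3 (65.6 to 75.9 against 98 to 115 CPM). They are also apart for ITGA5 and ITGB8, which were not called, and overlap for the other members.

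The alpha chains, which set the ligand preference of an integrin, gave no call. ITGA5, the alpha chain of the classical fibronectin receptor, had 58.8, 58.1 and 54.3 CPM in treated and 54.1, 49.7 and 42.4 CPM in untreated tumors. The groups were apart by only a fraction of a CPM, and the log2 change was 0.23 ± 0.10 (adjusted p = 0.527, edgeR). ITGAV, which pairs with several beta chains, had 182, 182 and 231 CPM in treated and 191, 180.4 and 217 CPM in untreated tumors. Its log2 change was 0.01 ± 0.09 with a 95% interval of -0.19 to 0.21, and it was -0.01 with upper-quartile scaling or library size alone.

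ITGA4, the alpha chain that reads the spliced segment, had 98.3, 91.7 and 126 CPM in treated and 71.1, 61.1 and 101 CPM in untreated tumors. The untreated tumor of the 2-library set lay above both treated tumors of the 4-library set, so the groups overlapped, but within each set the treated tumors were higher. Its log2 change of 0.45 ± 0.10 (95% interval 0.22 to 0.68) did not pass over all genes by edgeR (adjusted p = 0.0917) and passed by DESeq2 (adjusted p = 0.0165). ITGA3, better known as a laminin receptor chain that also meets fibronectin, was the only member with a log2 change below 0. It had 210.1, 152 and 132 CPM in treated and 235, 214 and 164 CPM in untreated tumors. Its change was -0.31 ± 0.13 and did not pass (adjusted p = 0.497, edgeR).

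Among the beta chains, which carry the cytoplasmic tails that talin and kindlin bind, ITGB3 rose. Its levels were 98, 105 and 115 CPM in treated and 67.2, 65.6 and 75.9 CPM in untreated tumors. All treated tumors were above all untreated ones, with the tumors of the 2-library set the highest of each group. The log2 change was 0.61 ± 0.09, or 1.53-fold (95% interval of the log2 change 0.41 to 0.81, adjusted p = 0.0126, edgeR). The size hardly moved with the libraries used, from 0.58 to 0.65 with 1 left out, but the call was lost without replicate 1 of either group (adjusted p = 0.0698 without the treated and 0.053 without the untreated library), without untreated replicate 2 (adjusted p = 0.0504), without anle138b replicate 3 (adjusted p = 0.0772) and without the naming set term (adjusted p = 0.249). ITGB3 shares 2266 exonic bases on the same strand with the annotated gene AC068234.1, which had 0 counts in every library, so reads from that stretch may have been left out of ITGB3 by the counting.

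ITGB1, the most widely shared beta chain, had 196, 193 and 198 CPM in treated and 180.1, 194 and 205 CPM in untreated tumors. The treated tumors lay within the untreated range, and the log2 change was 0.02 ± 0.09 with a 95% interval of -0.18 to 0.22. ITGB5, a partner of ITGAV, had 93.8, 84.7 and 124 CPM in treated and 82.5, 81 and 93.6 CPM in untreated tumors (log2 change 0.22 ± 0.10, adjusted p = 0.606, edgeR). ITGB8, the partner of ITGAV that is known to release TGF-beta from its latent form, had 234, 237 and 299 CPM in treated and 226, 220.1 and 218 CPM in untreated tumors. The treated tumors were all higher, 2 of them by little, and the log2 change of 0.21 ± 0.11 did not pass (adjusted p = 0.696, edgeR). Both genes had their highest level in the treated tumor of the 2-library set.

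SDC4, a heparan sulfate proteoglycan that binds fibronectin beside the integrins, had 108, 85.4 and 115 CPM in treated and 99.4, 102.6 and 76.7 CPM in untreated tumors. The groups overlapped, and the log2 change was 0.16 ± 0.15 (adjusted p = 0.911, edgeR). It was -0.06 in the 4-library set alone, whereas the treated tumor of the 2-library set was above its untreated tumor by 0.59 in log2 CPM.

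**Figure D2:**
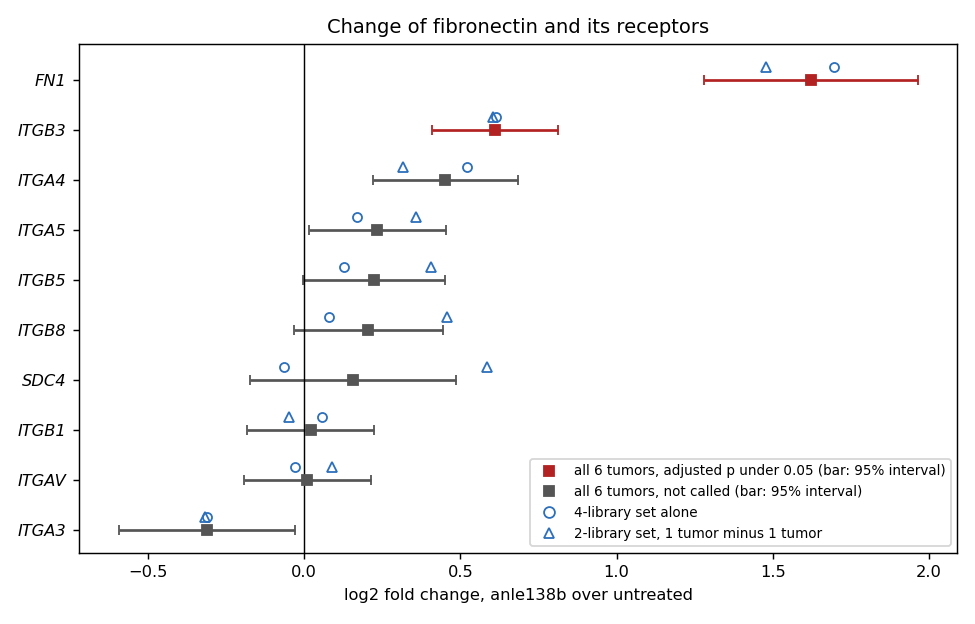
Log2 fold change of each gene, anle138b over untreated: squares are the fit of all 6 tumors with its 95% interval (red where the adjusted p was under 0.05), circles the 4-library set alone and triangles the difference of the single treated and untreated tumors of the 2-library set. FN1 (1.62) and ITGB3 (0.61) are the called genes, and the sets lie farthest apart for SDC4 (-0.06 and 0.59).

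The naming sets were compared because each held both groups. For FN1 the change was 1.70 in the 4-library set alone (adjusted p = 0.00488, edgeR), and the treated tumor of the 2-library set exceeded the untreated one by 1.48 in log2 CPM. For ITGB3 these values were 0.62 and 0.60, and for ITGA4 0.52 and 0.31. ITGB3 was not called in the 4-library set alone (adjusted p = 0.0645), where 2 tumors stood against 2. Whether the treatment effect differed between the sets was tested by edgeR, limma and DESeq2. Each called 0 of the 10 members, beside 0%, 0% and 0.158% of all genes. The 2-library set has a single tumor per group, so only the 4-library set gave this test a spread between replicates. The lack of a call therefore does not show that the effects were alike, and a difference between the sets remains undecided. SDC4 was the 1 member with an unadjusted p under 0.05 in edgeR's test of this difference (adjusted p = 0.736), as were 1345 of all tested genes. Between the sets, whatever the treatment, ITGA4 was the 1 member called, higher in the 2-library set by 0.51 ± 0.11 (adjusted p = 0.0142, edgeR), against 15.5% of all genes. DESeq2 called 3 members between the sets, beside 17.3% of all genes.

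Levels of different genes were compared per length, as CPM per kilobase of the longest coding transcript (RPKM). In untreated tumors FN1 had a median of 372 RPKM (range 322 to 389). ITGB1 was next with 51.2 (47.6 to 54.1), followed by ITGA3 with 43.8 (33.6 to 48) and SDC4 with 38 (29.4 to 39.3). ITGAV and ITGB8 had 27.2 (25.7 to 30.9) and 25.1 (24.9 to 25.8). ITGB5, ITGA4 and ITGB3 lay at 18.9, 17 and 16.8, with ITGA4 ranging from 14.6 to 24.1. For ITGB3 the full length of 3995 bases was used, though reads from its 2266 exonic bases shared with AC068234.1 may have been left out. Its level per length and its rank may thus be too low. From ITGB1 to ITGB3 in this order, the ranges of all neighbours overlapped except those of ITGB8 and ITGB5. Read within each untreated tumor, ITGA3 was above SDC4 and ITGAV above ITGB8 in all 3, whereas ITGB1 and ITGA3, SDC4 and ITGAV, ITGB5 and ITGA4, and ITGA4 and ITGB3 changed places between tumors. ITGA5 was the lowest at 11.2 (9.54 to 12.2). With the length of all annotated exons together in place of the coding transcript, an alternative added after the data were seen, FN1 remained first and ITGA5 last, while SDC4 moved from rank 4 to 2 and ITGB3 from rank 9 to 6.

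In treated tumors the median of FN1 was 1153 RPKM (897 to 1310). ITGB3 was at 26.3 (24.5 to 28.9), rank 6 in place of 9, and thus close to ITGB8 at 27.1 and ITGAV at 25.9. The limit given for the length of ITGB3 holds for this rank and for every sum that includes the beta chains. ITGA5 stayed last at 13.1. FN1 exceeded ITGB1 per length 22.3, 25.6 and 17.2 times in treated tumors and 7.82, 7.59 and 5.95 times in untreated tumors. Set against the sum of the 8 integrin chains, FN1 stood at 5.01, 6.07 and 3.65 times that sum in treated and 1.74, 1.88 and 1.48 times in untreated tumors. The 4 alpha chains together varied little, from 91.9 to 106 RPKM over all 6 tumors. Within this sum ITGA3 made up 40.7%, 33.8% and 26.4% in treated and 46%, 46% and 34.2% in untreated tumors. ITGA4 made up 22.2%, 23.8% and 29.4% in treated and 16.3%, 15.3% and 24.5% in untreated tumors. The 4 beta chains together had 124, 124 and 144 RPKM in treated and 109, 111 and 119 RPKM in untreated tumors. ITGB1 made up 41.6%, 41.2% and 36.4% of the 4 beta chains in treated and 43.6%, 46% and 45.3% in untreated tumors.

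**Figure D3:**
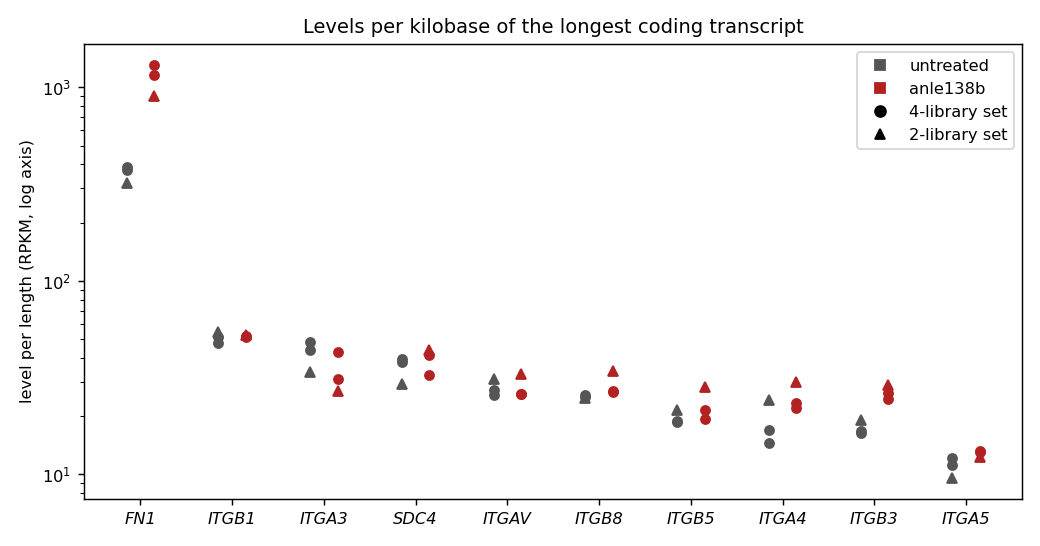
Level per length of each gene in each tumor (RPKM on a log axis), ordered by the untreated median, untreated in grey and anle138b in red, circles for the 4-library set and triangles for the 2-library set. FN1 lies above all receptors in every tumor (322 to 1310 RPKM), and ITGA5 is last by its median in both groups (11.2 and 13.1 RPKM). ITGB3 may stand too low, since reads from the bases it shares with AC068234.1 may have been left out.

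The genes whose pattern was most like FN1 were sought among 9260 tested genes with an average log2 CPM of at least 4, by Pearson's r of log2 CPM over the 6 tumors after the mean of each naming set was removed. The 5 closest were C7orf31, CEMIP2, A2M, GRK5 and C10orf90, with r from 0.9977 to 0.9983. With 6 tumors in 2 groups any gene that follows treatment closely scores high, so the values are given as a description. CEMIP2, a cell-surface hyaluronidase, had 142, 158 and 188 CPM in treated and 88.1, 89.9 and 120.2 CPM in untreated tumors (log2 change 0.72 ± 0.09, adjusted p = 0.00671, edgeR). A2M, the protease inhibitor alpha-2-macroglobulin, had a log2 change of 0.59 ± 0.09 (adjusted p = 0.0163) and C10orf90 one of 1.19 ± 0.10 (adjusted p = 0.000598). C7orf31 followed the same order at a small size (0.15 ± 0.11) and was not called. Among the members, r with FN1 was highest for ITGB3 (0.997) and ITGA4 (0.931), and was -0.799 for ITGA3.

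Genes that work with these members were read from 8 lists chosen by function. Of their 167 genes 150 were tested, of which 2 rose and 3 fell, with a median log2 change of 0.00. Over all tested genes 1.05% were called, 0.656% raised and 0.397% lowered. Among the other integrin subunits 0 of 13 tested were called (median -0.07). ITGA1, a collagen receptor chain, and ITGA7, a laminin receptor chain, came closest with opposite signs, at 0.61 ± 0.13 and -0.61 ± 0.13 (adjusted p = 0.0682 for both, edgeR). DESeq2 called both of them.

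Among the activators and adaptors of focal adhesions 0 of 36 rose and 1 fell (median -0.04). That gene, FBLIM1, encodes migfilin, which links filamin to kindlin. It had 3.67, 2.24 and 0.5 CPM in treated and 7.37, 9.85 and 2.12 CPM in untreated tumors. The groups overlapped, since both tumors of the 2-library set were low, and the log2 change was -1.67 ± 0.26 (adjusted p = 0.0178, edgeR). The call was lost without untreated replicate 2 or either library of the 2-library set (adjusted p = 0.0671, 0.0588 and 0.0749). RSU1, which belongs to the complex of integrin-linked kinase, had a log2 change of 0.38 ± 0.10, TNS2, a tensin that binds integrin tails, one of -0.45 ± 0.13 and KANK2, a talin-binding protein, one of -0.34 ± 0.10. None of these 3 passed by edgeR after the low-count filter, and TNS2 was called by edgeR without it. In the list of integrin inactivators and trafficking genes 0 of 13 were called, and 0 of 13 in that of membrane partners such as tetraspanins (medians 0.04 and -0.11).

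In the list of syndecans, glypicans and CD44, 0 of 10 genes were called (median 0.02). SDC3 had a log2 change of -0.53 ± 0.15 and AGRN one of -0.79 ± 0.24, with adjusted p = 0.192 and 0.249 by edgeR, and DESeq2 called both. Among other ligands of these integrins 0 of 30 rose and 1 fell (median 0.08). LAMA5, the alpha chain of laminins bound by ITGA3 with ITGB1, had 23.2, 14.9 and 12.5 CPM in treated and 49.8, 64.3 and 24.9 CPM in untreated tumors. Every treated tumor was below every untreated one, the closest pair being 23.2 and 24.9 CPM. The log2 change of LAMA5 was -1.38 ± 0.19 (adjusted p = 0.00933, edgeR), and the call held with each library left out in turn (adjusted p up to 0.0435). SPP1, the gene of osteopontin, a ligand of ITGAV with ITGB3, was just short of a call at -0.56 ± 0.11 (adjusted p = 0.0512, edgeR), and fits with upper-quartile scaling, library size alone, the stricter filter, limma and DESeq2 were among those that called it. CCN3, a matricellular ligand, had a change of 0.73 ± 0.16 (adjusted p = 0.0792, edgeR). It was called by DESeq2, without the low-count filter and without anle138b replicate 2 or untreated replicate 1.

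In the list of fibronectin assembly and turnover 0 of 15 genes were called (median 0.10). MMP2, a matrix metalloproteinase, came closest, at 58.7, 78.8 and 70 CPM in treated and 52.2, 40.3 and 28.3 CPM in untreated tumors. Every treated tumor was above every untreated one, and the log2 change was 0.82 ± 0.18 (adjusted p = 0.0815, edgeR). MMP2 was called by DESeq2, without the low-count filter and without anle138b replicate 1 or 2. BMP1, a procollagen protease, had a log2 change of 0.51 ± 0.14 (adjusted p = 0.182, edgeR) and was called without the low-count filter. In the list of latent TGF-beta and its targets 2 of 20 rose and 1 fell (median 0.09). SMAD3, a signal transducer of TGF-beta, had 67, 81 and 93.3 CPM in treated and 40, 45.3 and 43.2 CPM in untreated tumors. The groups were apart, and SMAD3 rose by 0.91 ± 0.12 on the log2 scale (adjusted p = 0.00717, edgeR), called with each library left out in turn (adjusted p up to 0.0493). PMEPA1, a TGF-beta target that restrains the pathway, had 23.6, 21.3 and 68 CPM in treated and 14.5, 8.96 and 32.2 CPM in untreated tumors. It was higher in treated tumors within each set, though the groups overlapped, and the log2 change was 0.98 ± 0.16 (adjusted p = 0.0234, edgeR). LTBP1, which tethers latent TGF-beta to the matrix, fell by 0.54 ± 0.10 (adjusted p = 0.0398). PMEPA1 lost its call without anle138b replicate 1 or either library of the 2-library set (adjusted p = 0.0986, 0.156 and 0.11), and LTBP1 in every fit with 1 library left out except that without anle138b replicate 2 (adjusted p up to 0.267). TGFBI, a fibronectin-binding target of TGF-beta, had 563, 472 and 957 CPM in treated and 437, 396 and 352 CPM in untreated tumors. Its log2 change of 0.69 ± 0.21 did not pass (adjusted p = 0.247, edgeR), and DESeq2, the fit without the low-count filter and that without anle138b replicate 2 called it. The change of TGFBI was 0.31 in the 4-library set and 1.44 between the tumors of the 2-library set, a difference with adjusted p = 0.0122 by DESeq2 and 0.469 by edgeR. TGFBR3, a TGF-beta co-receptor, had a change of 0.25 ± 0.09, and the ligand genes TGFB1 and TGFB2 had changes of -0.62 and -0.46, all with no call. None of the 5 called genes of the related lists, and neither FN1 nor ITGB3, passed without the naming set term.

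**Figure D4:**
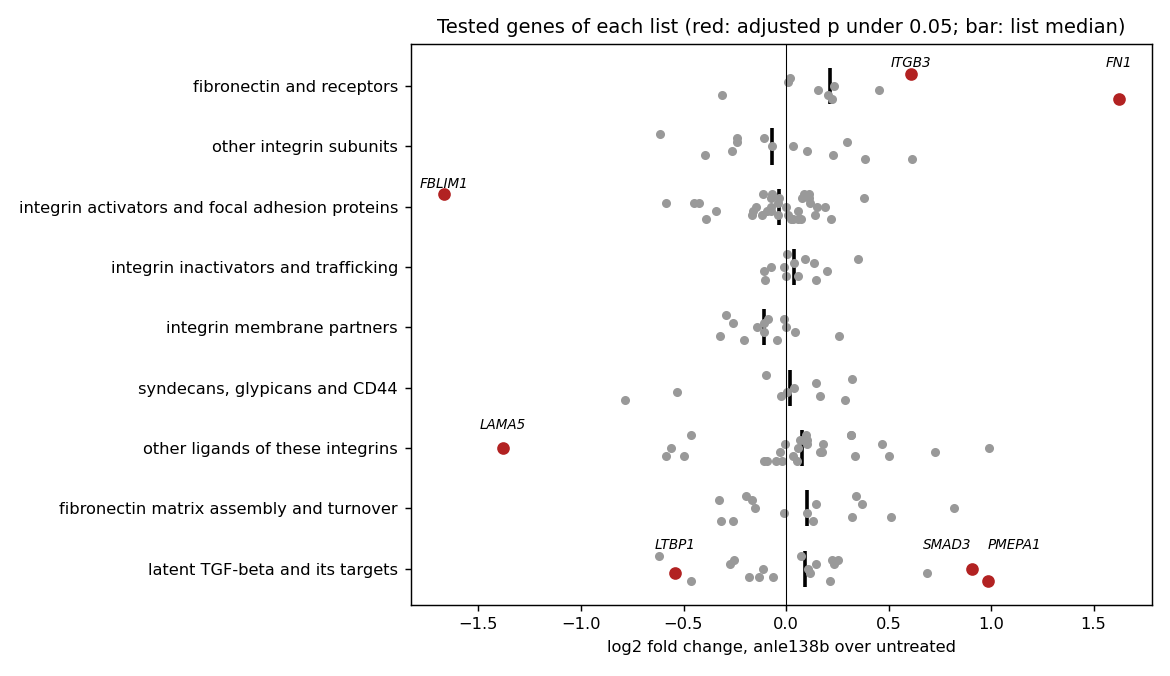
Log2 fold change, anle138b over untreated, of every tested gene of the fibronectin and receptor list and of the 8 related lists (points, red where the adjusted p was under 0.05; bars mark list medians). FN1 lies farthest to the right at 1.62, and FBLIM1 (-1.67) and LAMA5 (-1.38) farthest to the left.

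Fibronectin is also made by host cells, and the sources used here do not state how mouse reads were treated. Markers of other cell types were therefore read beside FN1, as human gene counts. Their calls stand beside 0.656% of all tested genes raised and 0.397% lowered. Of 10 fibroblast and pericyte markers 1 rose (LUM) and 0 fell, and their summed level was 587 to 1111 CPM in treated and 568 to 759 CPM in untreated tumors. The list also held CSPG4, and whether tumor cells or other cells made these transcripts was not tested. LUM, the gene of the collagen-binding lumican, had 230.1, 201 and 223 CPM in treated and 138, 154 and 113 CPM in untreated tumors. Its log2 change was 0.70 ± 0.12 (adjusted p = 0.0249, edgeR), called in 2 of 6 fits with a library left out (adjusted p up to 0.174) and neither in the 4-library set alone (0.117) nor without the set term (0.308). The collagen genes COL1A1, COL1A2 and COL3A1 had log2 changes of -0.02, 0.10 and -0.03 over both sets. These were -0.31, -0.17 and -0.19 in the 4-library set, while the treated tumor of the 2-library set was above its untreated tumor by 0.53, 0.61 and 0.29 in log2 CPM. DCN stood at 6.76 to 9.25 CPM in all tumors. Of 8 endothelial markers 0 of 5 tested were called, with sums of 10.5 to 19.7 CPM in treated and 8.96 to 17.1 CPM in untreated tumors. Hepatocytes make plasma fibronectin. Of 7 hepatocyte markers 3 were tested, of which 0 rose and 1 fell. That gene, SERPINA1, had 1.53, 1.28 and 0.778 CPM in treated and 3.23, 3.85 and 2.63 CPM in untreated tumors (log2 change -1.48 ± 0.25, adjusted p = 0.0249, edgeR), and was called in 1 of 6 fits with a library left out (adjusted p up to 0.19). The summed level of the hepatocyte markers, 165 to 217 CPM in treated and 61.8 to 158 CPM in untreated tumors, was mostly TF. TF, the gene of transferrin, had 214, 161 and 189 CPM in treated and 117, 152 and 56.7 CPM in untreated tumors, so every treated tumor was above every untreated one. Its log2 change of 0.90 ± 0.24 did not pass (adjusted p = 0.17, edgeR) and was 0.48 in the 4-library set beside 1.74 between the tumors of the 2-library set. ALB stayed at or under 0.249 CPM, APOA1 was at 0 in 4 tumors and FGB in 5. Of 8 macrophage and leukocyte markers 0 of 4 tested were called, with sums of 30.4 to 48.1 CPM in treated and 22.5 to 42.1 CPM in untreated tumors. CD3E was at 0 in 5 tumors. Of the 7 skeletal muscle markers that matched an identifier, 0 of 4 tested were called. Their sum was 20.1 to 80.4 CPM in treated and 22.3 to 49.3 CPM in untreated tumors, and CKM reached 10.5 CPM in anle138b replicate 2 against at most 0.467 CPM elsewhere. That library also had the highest FN1. Without it FN1 changed by 1.55 and ITGB3 by 0.58 (adjusted p = 5.24e-05 and 0.0113, edgeR). The part of host reads in the FN1 level was not tested.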

How the data were processed

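RNA from 6 WM983-B xenografts was extracted with Trizol and made into libraries with a TruSeq RNA v2 kit, per the labels' protocols. The authors deposited raw counts per Ensembl gene in a file for each tumor. The tools were bcl2fastq 2.17.1.14, STAR 2.5.2a, featureCounts 1.5.0-p1 with the build hg38, per the submitters' processing notes. Annotation release, strand and multi-mapping settings, and the treatment of mouse reads are not stated in the sources used here. The kit does not mark strand, so antisense neighbours of ITGA5, ITGAV, ITGB1 and ITGB8 (42 to 203 shared exonic bases, at most 39 counts in a library) cannot be told apart from them.

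Symbols came from a supplied name table, and 226 of 227 list entries matched, the other being a skeletal muscle marker. Counts were fitted with edgeR 4.0.16 in R 4.3.3 after filterByExpr (minimum count 10, total 15) and TMM, with treatment and naming set as terms and 3 residual degrees of freedom. SE is the log2 change over the root of F. The naming set is read from sample titles. Replicate numbers follow listing order and pair nothing. Replicates differed beyond sampling noise (chi-square per degree of freedom 10.5 to 58.8). A count of 0 allows up to 0.109 to 0.242 CPM (3 counts, counting error only). The fit was tested on simulated data. DESeq2 1.42.0, limma 3.58.1 and other scalings, filters and sample choices served as alternatives.

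The members, the lists and the tests were chosen with earlier results of these data known. The text names all members, each called gene of a related list and up to 4 further genes of it with the smallest p; TGFB1 and the single marker genes were chosen after their values were seen.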

Additional observations from a re-analysis of the deposited data

How the results depend on the processing

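Of 16 alternatives FN1 kept its direction in 16 and its call in 15, with log2 changes from 1.55 to 1.71. ITGB3 kept its direction in 16 and its call in 10 (0.58 to 0.65), with adjusted p = 0.0645 in the 4-library set alone. The number of members called was 2, was 0 without the naming set term and 1 in the 4-library set alone, and was 1 to 2 with each library left out. Fits without either library of the 2-library set took the treatment effect from the 4-library set alone. Over all genes the count of 215 became 9 without the set term, 754 without the low-count filter, 412 with DESeq2 and 92 in the 4-library set alone, and was 89 to 392 with a library left out, where fewer samples or another set of genes enter the fit; the cause was not tested otherwise. In the DESeq2 fit and without the low-count filter ITGA4 was called as well. Of the related genes, in alternatives added after the data were seen, the 5 calls became 0 without the set term, 8 with library size alone, 18 without the filter, 13 with DESeq2 and 3 in the 4-library set alone, and were 2 to 10 with a library left out. Between the naming sets 3 members were called by DESeq2, and 0 to 2 by edgeR with a library left out. ITGAV turned to -0.0057 with upper-quartile scaling, -0.0053 with library size alone and -0.0294 in the 4-library set, and lay between -0.0289 and 0.0751 with a library left out. SDC4 turned to -0.0647 in the 4-library set and lay between -0.0628 and 0.309 with a library left out. The 95% intervals, which are not adjusted for the number of genes, include 0 for ITGAV, ITGB1, ITGB5, ITGB8 and SDC4. Those of ITGA3, ITGA4 and ITGA5 exclude 0, yet these genes were not called by edgeR with all 6 libraries and the low-count filter. For none of these members does the lack of a call show that there was no change.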
